A study of Mus musculus with 9 samples.

Results

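The genes that carry glucose carbon through glycolysis, the pyruvate steps and the tricarboxylic acid (TCA) cycle were followed in RAW264.7 cells, a mouse macrophage line from a tumour induced by Abelson murine leukaemia virus. The 48 members were listed by pathway step, by a rule that used no measured values but with earlier results of these data known, out of 55401 genes in the table: 20 of glycolysis, 13 of pyruvate and lactate handling, and 15 of the TCA cycle with citrate cleavage. Wild-type cells of this 1 line received DMSO (the solvent), DMSO with lipopolysaccharide (LPS, a bacterial cell wall component that activates macrophages), or LPS with skatole (LPS + Ska, skatole being a methylated indole), with 3 samples per group numbered 5, 6 and 7. The labels and the study's account of its results give 24 h of treatment, while its methods give a longer time. The study compared the groups to learn how skatole alters the response of macrophages to LPS.

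Glycolysis splits glucose into pyruvate in the cytosol, with hexokinase, phosphofructokinase and pyruvate kinase as its controlled steps. Pyruvate is then reduced to lactate and exported, or enters mitochondria, where pyruvate dehydrogenase turns it into acetyl-CoA for the TCA cycle. Macrophages activated by LPS are known for high glycolytic flux and for a TCA cycle interrupted around isocitrate and succinate, from which itaconate and succinate accumulate.

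Macrophage identity was checked first. Of 8 macrophage markers, Mertk was listed at 0 in every column and the other 7 were measured, Lyz2 at up to 10210 TPM. Lyz2 was at 9151 ± 453 TPM in DMSO, 4423 ± 204 in LPS and 10060 ± 146 in LPS + Ska, and Csf1r fell with LPS (-0.67). Cd14 was at 1296 ± 34.6, 1523 ± 37.1 and 2218 ± 40.6 TPM in the same order, and Fcgr1 at 30.53 ± 0.767, 34.06 ± 0.411 and 22.36 ± 0.24. By limma at an adjusted p under 0.05, 2 of these 7 were higher and 3 lower in LPS against DMSO (26.2% and 34.2% of all genes). In LPS + Ska against LPS 3 were higher and 1 lower (8.89% and 19.7% of all genes). The part of these shifts in the results below was not tested, and in bulk RNA fewer cells of a kind and less RNA per cell cannot be told apart. By the same rule all 6 LPS response genes were higher in LPS than in DMSO (26.2% of all genes). In LPS + Ska against LPS, 5 of the 6 were lower (19.7% of all genes), and Tnf did not pass (adjusted p = 0.95). Of the 5, Nos2 (-0.39) and Acod1 (-0.28) changed less. The other 3 (Il6, Il1b and Cxcl10) also had a fold change below 0.67, as did 6.14% of all genes. No listed marker of fibroblasts, epithelium, endothelium, T cells or B cells exceeded 0.672 TPM, and all epithelial and T cell markers were listed at 0. In the LPS and LPS + Ska groups replicate 5 is the mean of replicates 6 and 7 for every gene above 0 in all 3 columns, so these groups hold at most 2 independent values per gene. Which of these 3 columns were measured is unknown. Every SD below is over the 3 deposited columns of a group (n = 3), which in these 2 groups is not a spread of 3 measurements. The calls that were lost when the 2 independent values were recovered and fitted are named.

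Several members have near-identical copies elsewhere in the genome, and how the values are divided among them decides what the table lists. Gapdh, which oxidizes glyceraldehyde 3-phosphate and is commonly used as an abundant reference gene, was listed at only 139.6 ± 15 TPM in DMSO, 130.2 ± 2.71 TPM in LPS and 106.5 ± 26.6 TPM in LPS + Ska. Its 90 copies, 39 of them at 1 TPM or more, held 98.01%, 97.95% and 98.13% of the summed TPM in the 3 groups. The most abundant copy was the processed pseudogene Gm13394 (mm10 chromosome 2, 28933610 to 28934609, minus strand) with a mean of 2279 TPM over all columns, whereas Gapdh itself lies on chromosome 6, 125161715 to 125166467, minus strand. The 2 differ at 1 of 999 compared coding bases. The stretch that holds that base is shown because it holds the 1 base at which their coding sequences differ. It spans coding bases 364 to 483, counted from the A of the Gapdh start codon, from GENCODE M21, with the differing base (A424C, Gapdh first) in capitals.
Gapdh: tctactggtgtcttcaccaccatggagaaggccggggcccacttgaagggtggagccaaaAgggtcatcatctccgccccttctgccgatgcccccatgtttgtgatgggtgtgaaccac
Gm13394: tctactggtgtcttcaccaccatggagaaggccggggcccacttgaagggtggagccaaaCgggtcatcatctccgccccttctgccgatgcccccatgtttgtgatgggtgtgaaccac

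Eno1, the main enolase, lies on chromosome 4 (150236721 to 150248879, plus strand) and has 4 copies that held 54.9% of the summed TPM in DMSO, 53.5% in LPS and 56.1% in LPS + Ska. Its most abundant copy, the processed pseudogene Gm4735 (chromosome 2, 80837141 to 80838442, plus strand, mean 1314 TPM), differs at 5 of 1302 coding bases. Coding bases 711 to 830 of Eno1, counted in the same way, hold 2 of those 5 (T726C and T816G, in capitals).
Eno1: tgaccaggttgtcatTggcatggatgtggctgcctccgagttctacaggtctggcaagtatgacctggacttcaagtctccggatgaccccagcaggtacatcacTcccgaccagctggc
Gm4735: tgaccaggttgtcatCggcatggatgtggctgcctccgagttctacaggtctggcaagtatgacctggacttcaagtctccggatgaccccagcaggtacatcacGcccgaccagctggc

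The levels of these members are therefore uncertain, and sums with their copies are given beside them. Summed with its copies, Gapdh was at 7013 ± 127 TPM in DMSO, 6357 ± 111 TPM in LPS and 5681 ± 79.6 TPM in LPS + Ska. On the log2 scale the sum differed by -0.14 ± 0.046 (SE; adjusted p = 0.022) in LPS against DMSO and by -0.16 ± 0.046 (adjusted p = 0.027) in LPS + Ska against LPS. Gapdh alone had differences of -0.09 ± 0.16 (adjusted p = 0.62) and -0.32 ± 0.16 (adjusted p = 0.16). The summed Gapdh groups thus stood in the order DMSO, LPS, LPS + Ska, with differences under the fold limits, while the listed gene alone passed neither test. Summed Eno1 was at 4031 ± 125, 4287 ± 13.4 and 3572 ± 38.5 TPM in the same order, and Eno1 alone at 1817 ± 64.4, 1995 ± 43.9 and 1569 ± 22.6 TPM. Eno1 alone was higher in LPS than in DMSO by adjusted p (0.14, adjusted p = 0.029), which its sum did not pass (0.09, adjusted p = 0.11), nor did the gene with the recovered values (adjusted p = 0.061). In LPS + Ska against LPS both were lower, by -0.35 (adjusted p = 9.2e-04) for the gene and -0.26 (adjusted p = 0.003) for the sum, under the fold limits. Copies also held 36.4% to 44.3% of the sum for Mpc1, 9.69% to 14.5% for Suclg2 and 10.1% to 10.9% for Pgam1. For Tpi1, Pgk1, Pkm, Gpi1, Ldha and Pdhb they held at most 5.17%.

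**Figure D1:**
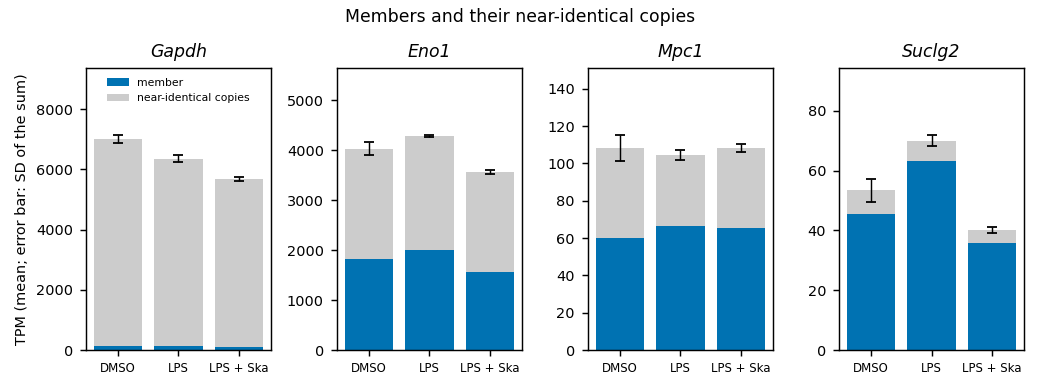
Mean TPM of Gapdh, Eno1, Mpc1 and Suclg2 (blue) and of their near-identical copies (grey), stacked, in DMSO, LPS and LPS + Ska; error bars are the SD of the sum over 3 columns. The copies hold 97.95% to 98.13% of the Gapdh sum but at most 14.5% of the Suclg2 sum.

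With LPS, 10 of the 20 glycolytic members fell, among them Slc2a6, Hk3, Pfkl, Pfkm and both aldolases, while Hk2 and Pfkp were higher by adjusted p alone. LPS also gave higher levels of the lactate and pyruvate transporter Slc16a1, the dehydrogenase subunit Dld and the kinase Pdk3. Of 47 members tested (Ldhb, a lactate dehydrogenase subunit, was listed at 0 in all 9 columns), 3 rose and 15 fell past both the adjusted p of 0.05 and the fold limits of 1.5 and 0.67. Across all 12819 genes 12.7% rose and 20.0% fell by this rule, against 6.38% and 31.9% of the members. Glycolysis gave 10 of the 15 members that fell (of 20 tested), the pyruvate steps 3 (of 12) and the TCA cycle 2 (of 15). After median-ratio scaling of the columns 3 members rose and 11 fell by this rule, beside 15.4% and 16.8% of all genes. Of those 11, glycolysis gave 7. The median log2 fold change was -0.55 in glycolysis, 0.13 in the pyruvate steps and -0.13 in the TCA cycle, beside -0.07 over all genes. By adjusted p alone 10 members rose and 26 fell, beside 26.2% and 34.2% of all genes, and with median-ratio scaling of the columns these counts became 14 and 22, beside 31.2% and 29.9%. The members together took 2.1% of all TPM in DMSO, 1.63% in LPS and 1.55% in LPS + Ska (20990, 16290 and 15500 TPM). These sums leave out the near-identical copies, which held 6874, 6227 and 5575 TPM for Gapdh and 2214, 2292 and 2003 TPM for Eno1. Both the level and the size of the fall depend on that choice.

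**Figure D2:**
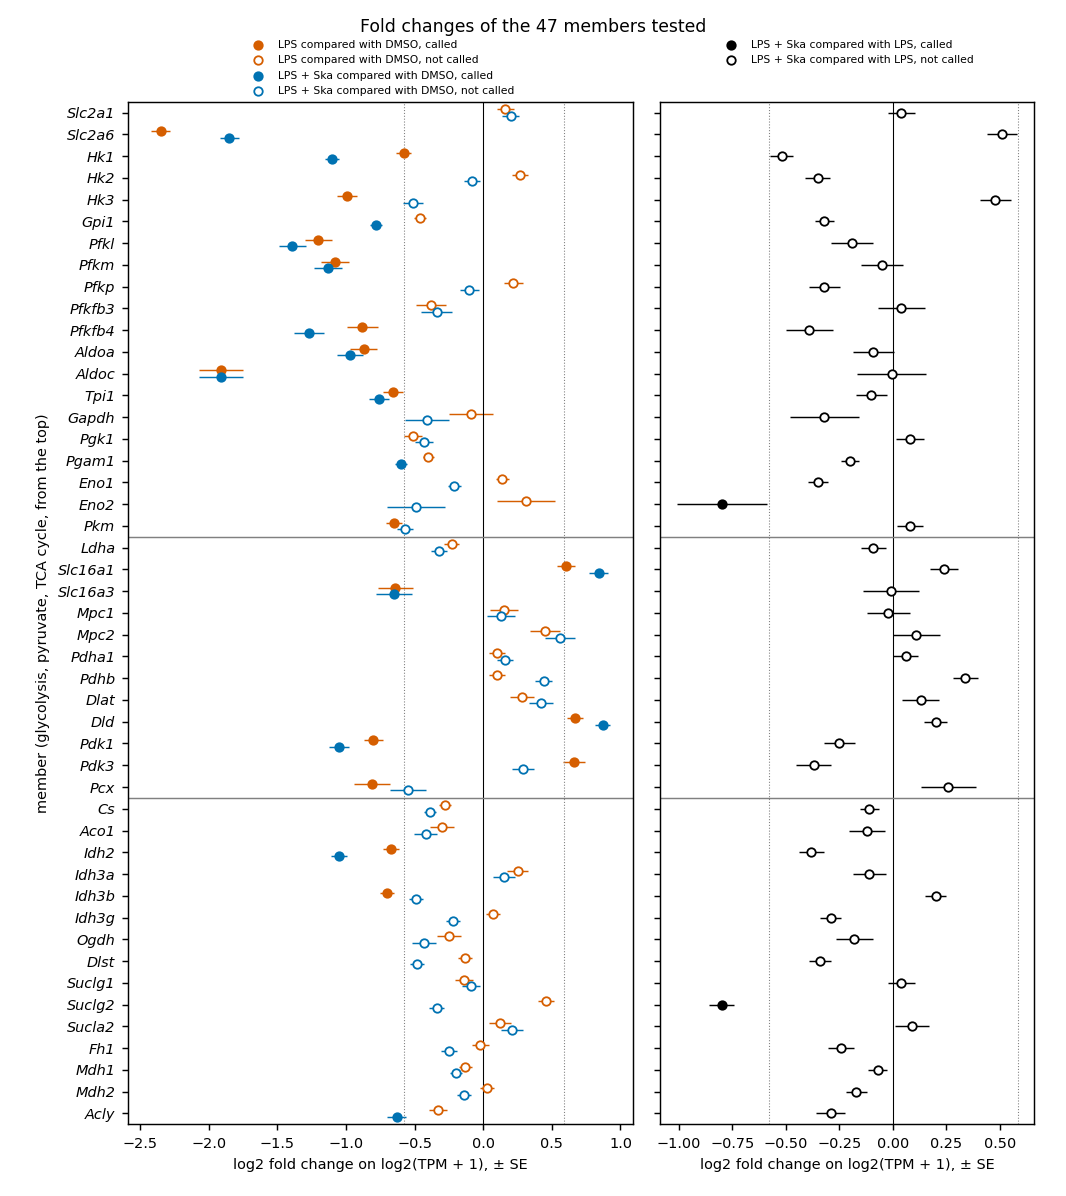
Log2 fold change on log2(TPM + 1) with its SE for the 47 members tested, in pathway order: left, LPS (orange) and LPS + Ska (blue) against DMSO, which share the DMSO columns; right, LPS + Ska against LPS. Filled points passed the adjusted p and the fold limits (dotted lines); on the right Eno2 and Suclg2 alone did.

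At glucose import, Slc2a6, a lysosomal member of the glucose transporter family, showed the largest fall of any member with LPS. It was listed at 128.7, 125.2 and 124.1 TPM in DMSO replicates 5, 6 and 7, at 23.86, 23.60 and 24.13 in LPS, and at 34.43, 37.62 and 31.25 in LPS + Ska. All DMSO columns lay above all others, and all LPS + Ska columns lay above the LPS columns. The log2 fold change was -2.35 ± 0.071 in LPS against DMSO (adjusted p = 2.6e-08) and 0.51 ± 0.071 in LPS + Ska against LPS (adjusted p = 0.0011), the latter under the fold limit and past it, at 0.60, after median-ratio scaling. Slc2a1, the main glucose importer of the plasma membrane, was at 91.39 ± 3.85 TPM in DMSO, 102.0 ± 5.99 in LPS and 105.0 ± 4.73 in LPS + Ska. It did not pass the test in LPS against DMSO (adjusted p = 0.057), but did after median-ratio scaling (0.24, adjusted p = 0.003).

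The 3 hexokinases, which trap glucose as glucose 6-phosphate, differed from each other. Hk1, which sits on mitochondria, was at 90.49 ± 3.87 TPM in DMSO, 60.01 ± 0.735 in LPS and 41.53 ± 0.755 in LPS + Ska. Its fall with LPS (-0.58 ± 0.053) lay at the fold limit and was under it after median-ratio scaling (-0.50). The same held without mitochondrial (mt-) and ribosomal protein genes (-0.55) and without DMSO replicate 7 (-0.55) or LPS replicate 7. Hk3 was at 35.13, 35.27 and 40.96 TPM in DMSO, at 18.15, 18.51 and 17.78 in LPS, and at 25.76, 25.70 and 25.83 in LPS + Ska. The 3 groups of Hk3 did not overlap, with LPS lowest and LPS + Ska between the other groups. Its log2 fold change was -0.99 ± 0.074 in LPS against DMSO (adjusted p = 5.0e-06) and 0.48 ± 0.074 in LPS + Ska against LPS (adjusted p = 0.0018). Hk2, the inducible form, was at 38.11 ± 0.508, 46.18 ± 1.02 and 35.92 ± 1.85 TPM in DMSO, LPS and LPS + Ska, higher in LPS than in either other group by adjusted p alone (0.27 against DMSO, and -0.35 in LPS + Ska against LPS). TPM is per length, so the 3 can be set side by side as shares of their sum. Hk2 took 23.0% ± 1.1 of hexokinase TPM in DMSO, 37.1% ± 0.18 in LPS and 34.8% ± 1.4 in LPS + Ska. Hk3 took 22.4% ± 1.0, 14.6% ± 0.048 and 25.0% ± 0.31. Hk1 went from 54.6% ± 0.42 through 48.3% ± 0.23 to 40.2% ± 1.1.

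Phosphofructokinase commits the sugar to glycolysis. Pfkl, its liver-type subunit, was at 89.55, 92.86 and 90.60 TPM in DMSO, at 39.21, 34.90 and 43.51 in LPS, and at 34.27, 30.41 and 38.14 in LPS + Ska. Pfkm, the muscle-type subunit, was at 10.73, 11.39 and 11.83 TPM in DMSO, at 4.847, 5.2 and 4.495 in LPS, and at 4.646, 4.182 and 5.111 in LPS + Ska. In both genes every DMSO column lay above every other column, while LPS and LPS + Ska overlapped. The log2 fold changes with LPS were -1.20 ± 0.097 (adjusted p = 8.4e-06) for Pfkl and -1.08 ± 0.10 (adjusted p = 2.3e-05) for Pfkm. Pfkp, the platelet-type subunit, was at 71.16 ± 5.68, 82.99 ± 2.80 and 66.29 ± 3.65 TPM and passed by adjusted p alone in LPS against DMSO (0.22) and in LPS + Ska against LPS (-0.32). The share of Pfkp in the 3 subunits was 41.0% ± 1.5 in DMSO, 65.4% ± 1.3 in LPS and 63.0% ± 3.9 in LPS + Ska. Pfkfb4 is a bifunctional enzyme that sets the level of the phosphofructokinase activator fructose 2,6-bisphosphate. It was at 11.60, 15.17 and 14.08 TPM in DMSO, at 6.940, 6.289 and 7.590 in LPS, and at 5.027, 5.087 and 4.967 in LPS + Ska. These 3 groups did not overlap. Its log2 fold change was -0.88 ± 0.11 with LPS (adjusted p = 1.5e-04), and -0.39 ± 0.11 in LPS + Ska against LPS (adjusted p = 0.031, but 0.099 with the recovered values and 0.057 after median-ratio scaling). Its relative Pfkfb3 was at 9.413 ± 1.21, 6.974 ± 0.178 and 7.176 ± 0.379 TPM.

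All 3 members at aldolase and triose phosphate isomerase, which split the sugar and interconvert the triose phosphates, fell with LPS. Aldoc was at 46.54, 70.45 and 52.00 TPM in DMSO, at 14.20, 11.77 and 16.63 in LPS, and at 14.02, 13.70 and 14.34 in LPS + Ska. Aldoa, the main aldolase, was at 2129, 2263 and 2257 TPM in DMSO, at 1208, 1212 and 1204 in LPS, and at 1141, 960.7 and 1322 in LPS + Ska. In both genes all DMSO columns were above the rest and the LPS and LPS + Ska columns overlapped. The log2 fold changes with LPS were -1.91 ± 0.16 for Aldoc (adjusted p = 9.0e-06) and -0.87 ± 0.097 for Aldoa (adjusted p = 5.6e-05). In LPS + Ska against LPS they were -0.0049 ± 0.16 and -0.09 ± 0.097. Aldoa has another identifier in the table, at 0 to 7.225 TPM, which was not added. Tpi1 was at 967.9 ± 51.6, 611.4 ± 0.371 and 573.1 ± 58.3 TPM, and its fall with LPS (-0.66 ± 0.073) reached -0.58 after median-ratio scaling, just under the fold limit. Gpi1, the isomerase before phosphofructokinase, was at 558.7 ± 11.7, 406.7 ± 10.5 and 325.3 ± 7.00 TPM, passed by adjusted p alone with LPS (-0.46), and fell past the fold limits in LPS + Ska against DMSO (-0.78 ± 0.044).

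In lower glycolysis, where ATP is made, Pkm was the most abundant member by listed values, although Gapdh summed with its copies exceeded Pkm summed with its copy in all 3 groups. This pyruvate kinase was at 6036 ± 365 TPM in DMSO, 3845 ± 64.8 in LPS and 4054 ± 202 in LPS + Ska, a log2 fold change of -0.65 ± 0.060 with LPS (adjusted p = 1.9e-05; -0.57 after median-ratio scaling, under the fold limit). Pgk1 (1283 ± 89.7, 896.7 ± 17.1 and 949.7 ± 55.5 TPM) and Pgam1 (945.2 ± 30.6, 713.7 ± 0.889 and 623.2 ± 2.67 TPM) were lower in LPS by adjusted p alone. Pgam1 fell past the fold limits in LPS + Ska against DMSO (-0.60). That fall was under the limit after median-ratio scaling (-0.42), without mt- and ribosomal protein genes (-0.55) and without DMSO replicate 6 (-0.57). Eno2, the neuronal enolase, was at 6.161, 8.451 and 4.014 TPM in DMSO, at 7.668, 7.580 and 7.757 in LPS, and at 3.999, 3.307 and 4.691 in LPS + Ska. The LPS + Ska columns lay below all LPS columns, and the DMSO columns ranged over both. The log2 fold change of Eno2 in LPS + Ska against LPS was -0.80 ± 0.21 (adjusted p = 0.019), but the adjusted p was 0.071 with the recovered values, and 0.053 to 0.065 without LPS replicate 5, 6 or 7 or without LPS + Ska replicate 5. At 0.254% to 0.383% of the summed Eno1 and Eno2, it is a minor enolase in these cells.

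**Figure D3:**
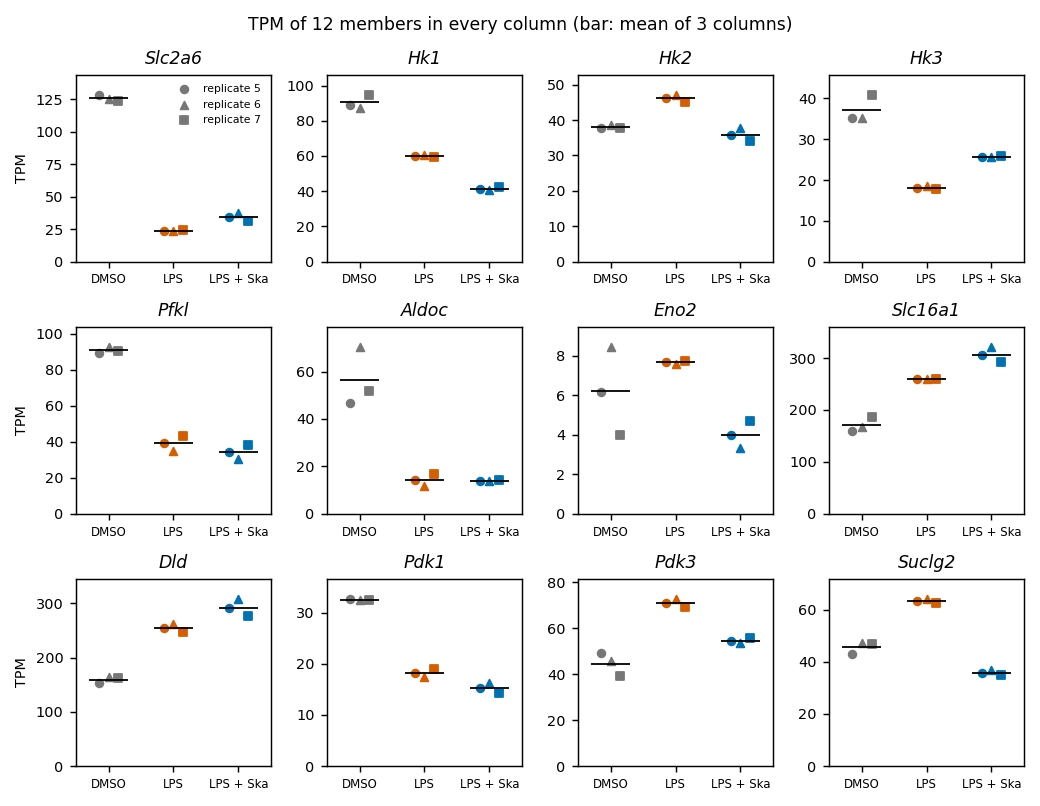
TPM of 12 members in every column, with circles, triangles and squares for replicates 5, 6 and 7 and a bar at the mean of each group; axes start at 0. Every DMSO column of Slc2a6, Pfkl, Aldoc and Pdk1 lies above the other groups, Hk3 is lowest in LPS, and Suclg2, Hk2 and Pdk3 are highest in LPS.

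At the lactate step the 2 transporters moved in opposite directions with LPS. Slc16a1 rose from 170.8 ± 14.4 TPM in DMSO to 259.5 ± 0.666 in LPS (log2 0.60 ± 0.066, adjusted p = 4.9e-05, and 0.55, under the fold limit, without DMSO replicate 5) and was at 306.6 ± 15 in LPS + Ska (0.24 against LPS, adjusted p = 0.025, but 0.078 with the recovered values). Slc16a3, the exporter typical of glycolytic cells, fell from 84.71 ± 9.40 to 54.21 ± 10.0 TPM (-0.64 ± 0.13, adjusted p = 0.0021) and was at 53.34 ± 3.26 in LPS + Ska; its fall was under the fold limit after median-ratio scaling (-0.56) and without LPS replicate 7 (-0.51). Slc16a1 held 66.9% of the pair in DMSO, 82.8% in LPS and 85.2% in LPS + Ska. Ldha, which makes lactate, was at 2171 ± 153, 1853 ± 15.9 and 1742 ± 55.3 TPM, lower in LPS by adjusted p alone (-0.23, adjusted p = 0.0073, and 0.087 after median-ratio scaling).

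Of the members that bring pyruvate into the TCA cycle, Dld was the one that rose past the fold limits, although median-ratio scaling also brought Mpc2 (0.74), Pdhb (0.62) and Dlat (0.60) past them in LPS + Ska against DMSO. Dld, the subunit that pyruvate dehydrogenase shares with other dehydrogenase complexes, rose from 159.5 ± 6.16 TPM in DMSO to 254.5 ± 6.77 in LPS (0.67 ± 0.056, adjusted p = 9.5e-06) and was at 292.3 ± 15.9 in LPS + Ska (0.20 against LPS, adjusted p = 0.027, but 0.067 with the recovered values). Pdhb, a subunit of the pyruvate decarboxylase component, was at 210.1 ± 13.2, 225.6 ± 5.69 and 285.6 ± 13.7 TPM, and passed by adjusted p alone in LPS + Ska against LPS (0.34 ± 0.060, adjusted p = 0.0036). All 4 dehydrogenase subunits were higher in LPS + Ska than in DMSO by adjusted p, and Dld was also past the fold limits. Of the 4, Pdha1 did not pass with the recovered values (adjusted p = 0.088). Mpc2, a subunit of the mitochondrial pyruvate carrier, was at 64.28 ± 9.93, 87.65 ± 2.32 and 94.71 ± 8.81 TPM. It was higher than in DMSO by adjusted p alone in LPS (0.45 ± 0.11, adjusted p = 0.0059) and in LPS + Ska (0.56 ± 0.11, adjusted p = 0.0016). The latter passed the fold limit without DMSO replicate 6 (0.60) or 7 (0.65), LPS + Ska replicate 6 (0.63), or mt- and ribosomal protein genes (0.61). Mpc1, whose copy is discussed above, was at 60.22 ± 10.2, 66.45 ± 0.368 and 65.61 ± 3.45 TPM.

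The dehydrogenase kinases, which switch pyruvate dehydrogenase off, went opposite ways with LPS. Pdk1 was at 32.69, 32.40 and 32.55 TPM in DMSO, at 18.22, 17.49 and 18.94 in LPS, and at 15.23, 16.24 and 14.21 in LPS + Ska. Its 3 groups did not overlap, and its log2 fold change with LPS was -0.80 ± 0.072 (adjusted p = 1.5e-05). Pdk3 was at 44.59 ± 5.07 TPM in DMSO, 70.89 ± 1.79 in LPS (0.66 ± 0.080, adjusted p = 9.2e-05, and 0.57, under the fold limit, without DMSO replicate 7) and 54.56 ± 0.964 in LPS + Ska (-0.37 against LPS, adjusted p = 0.0087, and 0.055 after median-ratio scaling). Pdk1 thus held 42.3% of the pair in DMSO, 20.5% in LPS and 21.8% in LPS + Ska. Pcx, which makes oxaloacetate from pyruvate, was at 9.419, 6.980 and 8.469 TPM in DMSO, at 4.274, 3.779 and 4.770 in LPS, and at 5.289, 5.182 and 5.396 in LPS + Ska. Its fall with LPS was -0.81 ± 0.13 (adjusted p = 4.2e-04, and 0.053 with replicate 5 alone of the tied groups), and the LPS + Ska columns lay above the LPS columns without passing the test (0.26 ± 0.13, adjusted p = 0.15).

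In the TCA cycle the isocitrate dehydrogenases gave both members that fell with LPS. Idh3b, a regulatory subunit of the NAD-dependent enzyme, was at 186.7, 190.0 and 191.2 TPM in DMSO, at 116.5, 111.8 and 121.3 in LPS, and at 134.3, 129.8 and 138.9 in LPS + Ska. The groups did not overlap. The log2 fold change was -0.70 ± 0.051 with LPS (adjusted p = 4.4e-06) and 0.20 ± 0.051 in LPS + Ska against LPS (adjusted p = 0.017, and 0.05, no longer under the limit, with the recovered values). The mitochondrial NADP-dependent Idh2 was at 270.2 ± 9.24, 169.9 ± 2.28 and 130.5 ± 9.64 TPM (-0.67 ± 0.060 with LPS, adjusted p = 1.6e-05, and -0.38 ± 0.060 in LPS + Ska against LPS, adjusted p = 0.0021). The catalytic subunit Idh3a was at 306.3 ± 32.4, 364.1 ± 0.316 and 338.4 ± 23.1 TPM, so that Idh3b held 25.4% of the 3 subunits in DMSO, 15.7% in LPS and 19.6% in LPS + Ska. Citrate synthase (Cs), at 267.9 ± 6.93, 220.1 ± 1.96 and 204.0 ± 4.21 TPM, and the cytosolic aconitase Aco1, at 37.85 ± 3.53, 30.49 ± 0.569 and 28.09 ± 2.40, were lower with LPS by adjusted p alone.

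Beside Eno2, the member that fell past the fold limits in LPS + Ska against LPS was Suclg2, the subunit that gives succinyl-CoA synthetase its GTP-forming activity. It was at 42.87, 47.24 and 46.75 TPM in DMSO, at 63.24, 64.09 and 62.39 in LPS, and at 35.87, 36.66 and 35.09 in LPS + Ska. The 3 groups did not overlap, with LPS highest and LPS + Ska lowest. The log2 fold change was 0.46 ± 0.058 in LPS against DMSO (adjusted p = 1.2e-04, under the fold limit) and -0.80 ± 0.058 in LPS + Ska against LPS (adjusted p = 4.1e-05), and -0.79 ± 0.064 (adjusted p = 7.6e-05) when summed with its copy Gm15163. Its counterpart Sucla2, which gives the ATP-forming enzyme, was at 65.70 ± 5.72, 71.23 ± 1.32 and 75.92 ± 6.34 TPM. Suclg2 therefore held 41.0% of the pair in DMSO, 47.0% in LPS and 32.2% in LPS + Ska. The shared subunit Suclg1 was at 132.7 ± 10.6, 120.4 ± 1.66 and 124.2 ± 2.86 TPM. The adjusted p of Suclg2 was 0.17 when replicate 5 alone stood for the tied groups, a fit in which no gene of the 12819 passed in this comparison by limma, and in which 547 genes were higher and 1064 lower at an unadjusted p under 0.05.

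The differences of the other TCA members were smaller than the fold limits in LPS against DMSO. Ogdh (127.1 ± 10.8, 106.4 ± 0.340 and 94.26 ± 10.3 TPM) and Dlst (184.8 ± 4.24, 168.2 ± 0.121 and 132.6 ± 6.64 TPM), subunits of oxoglutarate dehydrogenase, were both lower in LPS + Ska than in DMSO by adjusted p alone (-0.43 and -0.48). Fh1, the fumarase, was at 178.9 ± 2.98, 176.8 ± 7.26 and 150.1 ± 10.8 TPM, and the malate dehydrogenases Mdh1 and Mdh2 at 285.5 to 328.0 and 619.4 to 696.9 TPM in group means. Their differences between LPS + Ska and DMSO (-0.25, -0.20 and -0.14) passed by adjusted p alone but not after median-ratio scaling, which brought them to -0.07, -0.02 and 0.04. Idh3g was at 250.1 ± 9.76, 262.3 ± 2.08 and 214.5 ± 8.85 TPM. Acly, which cleaves citrate in the cytosol to supply acetyl-CoA, was at 155.1 ± 6.62, 122.7 ± 1.98 and 100.4 ± 8.86 TPM. It was past the fold limit in LPS + Ska against DMSO (-0.63), but not after median-ratio scaling (-0.44). Nor was it without mt- and ribosomal protein genes (-0.57) or without LPS + Ska replicate 7 (-0.56). Dlat, the acetyltransferase of pyruvate dehydrogenase, was at 88.65 ± 10.3, 107.8 ± 6.14 and 118.2 ± 6.66 TPM, and Pdha1 at 70.14 ± 4.49, 75.07 ± 1.39 and 78.14 ± 0.369.

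Counted over the members, LPS + Ska against LPS gave 2 that fell, Eno2 and Suclg2, beside 6.14% of all genes, and 0 that rose by limma, beside 3.35% of all genes. By adjusted p alone 6 were higher (Slc2a6, Hk3, Slc16a1, Pdhb, Dld and Idh3b) and 17 lower, beside 8.89% and 19.7% of all genes. The lower members of glycolysis were Hk1 (-0.52, adjusted p = 2.5e-04), Hk2, Gpi1 (-0.32), Pfkp, Pfkfb4, Pgam1 (-0.20), Eno1 and Eno2. Those of the pyruvate steps were Pdk1 (-0.25) and Pdk3. Those of the TCA cycle were Idh2, Idh3g (-0.29), Dlst (-0.34), Suclg2, Fh1 (-0.24), Mdh2 (-0.17) and Acly (-0.29). At an unadjusted p under 0.05, 6 and 18 members were higher and lower. Median-ratio scaling turned the 6 and 17 into 8 and 11, beside 14.3% and 13.1% of all genes in that fit, and the recovered values into 3 and 13, beside 5.9% and 12.7%. Beside those named above, the passes by adjusted p alone that were lost with the recovered values were Dlst (adjusted p = 0.068) and Mdh1 (0.073) in LPS against DMSO, Pdk1 (0.088) and Mdh2 (0.078) in LPS + Ska against LPS, and Pfkfb3 (0.05) and Sucla2 (0.062) in LPS + Ska against DMSO. The median log2 fold change of the members in LPS + Ska against LPS was -0.10, as over all genes. Against DMSO, LPS + Ska gave 2 members that rose (Slc16a1 and Dld) and 14 that fell, beside 11.4% and 25.3% of all genes, and 5 and 10 after median-ratio scaling, beside 16.8% and 17.9%. By adjusted p alone 9 were higher and 32 lower, beside 22.7% and 40.6% of all genes (22.8% and 40.6% where copies were summed with their members). That scaling moved the median of all genes in this comparison from -0.18 to -0.01, and the median of the members from -0.41 to -0.23. LPS against DMSO and LPS + Ska against LPS share the LPS columns, so opposite values of a gene in the 2 are not independent of each other. The columns of the 2 groups compared did not overlap in 37 members for LPS against DMSO, 30 for LPS + Ska against LPS and 39 for LPS + Ska against DMSO, beside 68.9%, 51.2% and 64.8% of all genes.

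**Figure D4:**
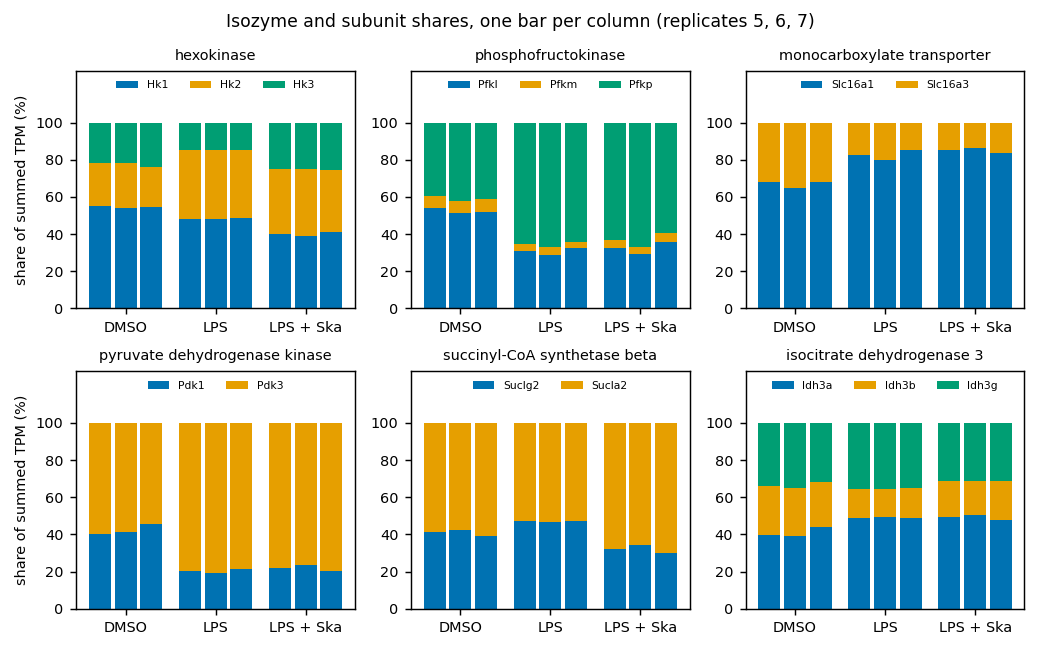
Stacked share of each isozyme or subunit in the summed TPM of its family (%), with 1 bar per column in the order of replicates 5, 6 and 7 within DMSO, LPS and LPS + Ska. The Pfkp share is 41.0% in DMSO and 65.4% in LPS, and the Suclg2 share is 47.0% in LPS and 32.2% in LPS + Ska.

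In all, 57 share differences were compared by 2-sided exact permutation tests, and the columns did not overlap in 43. In families of 2 genes 1 share is 100% minus the other, so both counts hold each such difference under both genes. No rate over all genes is available for such shares. With 3 columns against 3 no such test can give a p below 0.1, and the smallest value adjusted over the 57 was 0.133, so none of the shares passes a threshold of 0.05. With the recovered values the smallest p was 0.2 against DMSO and 0.333 for LPS + Ska against LPS.

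Of 53 further genes of these pathways, 36 were tested, and 2 rose and 7 fell with LPS (5.56% and 19.4%, beside 12.7% and 20.0% of all genes). Acod1, which makes itaconate from the TCA cycle, rose from 6.406 ± 0.402 TPM in DMSO to 215.9 ± 9.53 in LPS and was at 177.7 ± 15.1 in LPS + Ska. Gpd2, the mitochondrial glycerol phosphate dehydrogenase, rose from 19.78 ± 1.22 to 37.38 ± 0.752 TPM and fell in LPS + Ska to 22.16 ± 3.21 (-0.74, adjusted p = 0.001). The 7 that fell with LPS were Eno3, Pgam2, Slc2a8, Acss2, Slc25a1, Pfkfb2 and the succinate dehydrogenase subunit Sdhc, with log2 fold changes from -1.42 to -0.61. In LPS + Ska against LPS, 2 rose and 2 fell (5.56% each, beside 3.35% and 6.14% of all genes). The shares that fell were near those of all genes in both comparisons. Idh1, the cytosolic NADP-dependent isocitrate dehydrogenase, rose from 111.8 ± 0.809 to 209.9 ± 7.91 TPM (0.90, adjusted p = 1.6e-05), and Me1, the cytosolic malic enzyme, from 46.44 ± 0.283 to 73.41 ± 3.77 TPM (0.65, adjusted p = 7.3e-04). The other that fell beside Gpd2 was the transporter Slc16a7 (-0.72, adjusted p = 0.0067). Against DMSO, LPS + Ska had 2 higher (Acod1 and Idh1) and 10 lower (5.56% and 27.8%, beside 11.4% and 25.3% of all genes), among them Eno3 (-1.93), Slc16a7 (-1.24), Bsg (-0.78) and Pdpr (-0.59). Among 9 regulators, 6 were tested, and Hif1a, the oxygen-regulated activator of glycolytic genes, rose from 79.94 ± 7.93 to 144.7 ± 0.566 TPM with LPS, as did Myc (1.86). Esrra (-0.75) and the prolyl hydroxylase Egln1 (-0.71) fell.

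Promoter sequences of 47 members were searched on both strands for ACGTG, the core bound by hypoxia-inducible factors, around each RefSeq start (GRCm38.p6). It was present at a start of 22 members (46.8%), and of 21.8% of all 27025 genes with a promoter in the table. A gene counted if any of its starts held the motif, and genes were not matched by their number of starts. Over all 32851 promoters, taken singly, the share was 19.6%. CACGTG, an E-box that contains ACGTG, was present in 6 members (12.8%, beside 8.09%), TGACNNNGC, the antioxidant response core, in 9 (19.1%, beside 14.0%) and TGANTCA, the AP-1 site, in 1 (2.13%, beside 8.97%). Of the 15 members that fell with LPS, 8 held ACGTG, beside 46.8% of the members and 21.8% of all genes. The searched window also held bases after the start. Aldoc, Hk1 and Gapdh, counted among the 22, had no match in the 250 bases before it. Aldoc and Hk1 are also among the 8. The 250 bases before the start are shown for Ldha and for both lactate transporters, which moved in opposite directions. For Ldha, 1 of its 2 starts is shown, picked as the one with the most matches. Matches to ACGTG on either strand are in capitals, and a CACGTG counts on both strands. The Ldha stretch is chr7:46845554-46845803, that of Slc16a1 chr3:104638414-104638663 and that of Slc16a3 chr11:120948817-120949066, all on the plus strand.
Ldha: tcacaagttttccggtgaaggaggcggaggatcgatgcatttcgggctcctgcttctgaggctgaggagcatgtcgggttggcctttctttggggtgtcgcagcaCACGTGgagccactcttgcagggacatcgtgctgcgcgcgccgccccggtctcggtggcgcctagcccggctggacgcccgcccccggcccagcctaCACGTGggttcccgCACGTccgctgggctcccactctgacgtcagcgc
Slc16a1: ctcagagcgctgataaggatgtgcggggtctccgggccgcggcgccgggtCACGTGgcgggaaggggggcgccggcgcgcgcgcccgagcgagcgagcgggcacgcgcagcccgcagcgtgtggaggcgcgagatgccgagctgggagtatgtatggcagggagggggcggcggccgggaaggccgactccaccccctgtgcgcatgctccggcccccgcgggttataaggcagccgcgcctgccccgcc
Slc16a3: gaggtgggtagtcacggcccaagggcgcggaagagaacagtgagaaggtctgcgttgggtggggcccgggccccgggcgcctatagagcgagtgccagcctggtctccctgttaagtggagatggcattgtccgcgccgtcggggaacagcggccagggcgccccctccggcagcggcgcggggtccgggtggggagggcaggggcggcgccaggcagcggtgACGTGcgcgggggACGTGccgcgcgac
There were 5 matches for Ldha, 2 for Slc16a1 and 2 for Slc16a3, so the transporters that rose and fell with LPS both held ACGTG.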

How the data were processed

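RNA from 9 samples of RAW264.7 cells was sequenced in 3 groups of 3. The submitters' processing notes name fastp 0.20.1, HISAT2 2.2.1, StringTie 2.0 and the mm10 build. The authors deposited gene values as TPM (transcripts scaled to a fixed total) in 55401 rows, of which 55141 matched a gene symbol. TPM keeps no depth, so the sequencing depth is unknown and no counting error is given. Columns were assigned by the replicate numbers in their names, and 0 value columns lacked a sample.

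The test was limma 3.58.1 (R 4.3.3, moderated with an intensity trend) on log2(TPM + 1), over all 9 columns and the 12819 genes with a mean of at least 1 TPM, with Benjamini-Hochberg adjustment over all of them. A gene was called at an adjusted p under 0.05 with a fold change above 1.5 or below 0.67. Fold changes are on the log2(TPM + 1) scale, which understates those of low genes. The script was tested on simulated data, in which the tied columns described below gave p-values that were somewhat too small. The labels do not say whether the samples came from separate cultures, so the p-values measure the spread between columns, which may be technical.

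The LPS and LPS + Ska columns are tied. Replicate 5 equals the mean of replicates 6 and 7 (tolerance 1e-05 TPM) in all 17950 and 17658 genes above 0 in all 3 columns, against at most 0.0636% of genes in DMSO. Where replicate 7 is at 0 and replicate 6 is not, replicate 6 is 3 times replicate 5 (tolerance 0.001) in 1478 of 1921 and 1391 of 1928 genes. In those genes replicate 5 is not the mean of the other 2 columns, so replicates 6 and 7 may not be measured values. These groups thus carry no more than 2 separate values for a gene, and these were also recovered and fitted (replicate 5 plus and minus 0.5 times the difference).

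Near-identical copies were searched with blastn 2.17.0 among GENCODE M21 transcripts (at least 95% identity over at least 70% of the copy). Isozyme shares were compared by exact permutation tests (SciPy 1.17.1). Members, lists and tests were chosen with earlier results of these data known. The text gives every column for the members called in LPS + Ska against LPS and for the 10 largest called differences of LPS against DMSO, and the other members by means, ranges and counts. The members plotted by column and the promoters shown were chosen after their values were seen. The result of 1 listed gene is not reported here.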

Additional observations from a re-analysis of the deposited data

How the results depend on the processing

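The counts of members called were within 1.5 times their value, in all 3 comparisons, with a pseudocount of 0.1, without a filter on low values, with a minimum of 5 TPM, without mt- and ribosomal protein genes, with the compared groups alone, without the intensity trend, with a replicate block, and when summed with near-identical copies (an alternative chosen after seeing the data). By adjusted p alone they were 10 higher and 26 lower for LPS against DMSO, 6 and 17 for LPS + Ska against LPS, and 9 and 32 for LPS + Ska against DMSO. The adjusted p rule drops the fold limits, so it changes the counts by its own construction. Median-ratio scaling keeps both limits and changes the normalization of the columns. It gave 1 higher for LPS + Ska against LPS (0 without it). For LPS + Ska against DMSO it gave 5 higher and 10 lower (2 and 14 without it). These counts thus depend on the normalization. The 2 members lower in LPS + Ska against LPS became 1 with recovered values, 0 with replicate 5 alone of the tied groups, and 1 to 2 when a replicate was left out. No called member changed sign. Over single members, 26 calls were lost and 15 gained among the alternatives, and 2779 values kept their call.

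The replicate block left all counts of members within 1.5 times their value, at 3 higher and 15 lower, 0 and 2, and 2 and 14, and changed no call of a member. Same-numbered columns deviated together at correlations of 0.38, 0.15 and 0.13 between LPS + Ska and LPS, -0.0063, 0.055 and 0.0085 between LPS and DMSO, and 0.08, 0.026 and -0.032 between LPS + Ska and DMSO. Since the tied columns make the first 3 no separate observations, the shared numbers were not used as pairs. Over all genes, median-ratio scaling gave 1970 higher and 2150 lower for LPS against DMSO (1630 and 2559 without it), 588 and 543 for LPS + Ska against LPS (429 and 787) and 2153 and 2295 for LPS + Ska against DMSO (1457 and 3243). For LPS + Ska against LPS, a minimum of 5 TPM gave 516 lower of the 10029 genes then tested (5.15%, beside 6.14% in the main fit). Depth is unknown, and how reads were divided among near-identical copies limits the values of Gapdh, Eno1 and Mpc1.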
